A study of Mus musculus with 26 samples.

Results

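In the fully grown germinal vesicle (GV) oocyte, chromatin passes from a diffuse state, in which the nucleolus is not surrounded (NSN), to a condensed state, in which a ring of chromatin surrounds it (SN), and transcription stops. From then on the oocyte lives on stored maternal RNA, part of which is degraded while the rest is kept for meiosis and the early embryo. In such cells a transcript can gain weight in a library while no new copies are made, because the level used here, CPM, is a share of all counts of the oocyte, with all libraries scaled to the same total. A rise of 1 transcript and a loss of the others cannot be told apart in these values.

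The 100 transcripts described here are moderately abundant ones with the largest gain in that share from NSN to SN. They were taken from the 38540 transcripts of the count table by a rule that used the measured values. A transcript was eligible when its identifier began with TCONS_, its mean over the NSN and SN oocytes lay between 50 and 1000 counts, and the study had listed it neither as missing from SN oocytes nor in its classifier of 100 transcripts for the stages. Of 6624 such transcripts in the window, 51 were listed and left out, and the 100 with the highest ratio of mean SN CPM to mean NSN CPM were kept of the remaining 6573. The stage contrast therefore chose these members, and all values of SN against NSN below are descriptions of them.

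The oocytes were wildtype GV oocytes of the strain C57Bl6/Babr, dissected from 2 mice of 12 weeks, called C and D, and stripped of cumulus cells. They were scored by Hoechst staining of the nucleus, and their polyadenylated RNA was captured and sequenced oocyte by oocyte. There were 9 NSN oocytes (5 of mouse C, 4 of mouse D), 16 SN oocytes (9 of mouse C, 7 of mouse D) and 1 oocyte of mouse D scored as intermediate. Oocytes of 2 animals are not independent animals, so p-values measure the spread between oocytes. Total counts ran from 1886716 to 2983344 in NSN oocytes and from 1358383 to 3647827 in SN oocytes, and the intermediate oocyte had 2163635. Counts are reads without molecular identifiers.

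Oocyte identity could be checked only for the 4 of 14 oocyte markers that had a name, all of them transcripts of the study's classifier. Zp3, a protein of the zona pellucida, lay between 1715 and 5052 CPM over all NSN and SN oocytes, the oocyte transcription factor gene Nobox between 317 and 768 CPM, and the oocyte-secreted protein genes Oosp1 and Oosp3 between 203 and 1294 CPM. Of 12 granulosa and cumulus cell markers, only Amh and Hsd3b1 had a name. Amh had 0 to 31 counts in NSN and 0 to 10 in SN oocytes. Hsd3b1 had 1 to 29 counts in NSN and 0 to 29 in SN oocytes, so it was counted in every NSN oocyte. Both are on the study's list of transcripts missing from SN oocytes. That list required a count in most NSN oocytes and 0 counts in most SN oocytes. Their low counts in SN oocytes were thus fixed by that list and cannot show that somatic cells were absent. None of the 5 leukocyte and erythroid markers had a name.

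None of the 100 members is paired with a gene name in the sources used here, so they are described as a set, and 2 of them by identifier. Their sequences and positions were not analysed here. Of 30 genes fixed as a list of maternal effect and meiotic maturation genes, 2 had a name, Cnot6l, which encodes a catalytic subunit of the CCR4-NOT deadenylase, and Cdc25a, a phosphatase that activates cyclin-dependent kinases. Both belong to the classifier and are thus not members.

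The ratio of mean SN CPM to mean NSN CPM ran from 1.90 at the top of the set to 1.481 at its end, with a median of 1.56, against a median of 1.02 over the 6573 eligible transcripts. The last 3 transcripts inside had ratios of 1.485, 1.485 and 1.481, and the next 3 outside 1.4802, 1.478 and 1.478, so the end of the list marks no step in the data. Gains were modest in size throughout, and no mean doubled.

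Members were well counted. Their mean counts ran from 50.1 to 981 (median 119, against 147 for eligible transcripts), and the lowest count of any member in any NSN or SN oocyte was 13. Transcripts near the lower edge of the window were more often chosen. Members made up 1.82% of the 2139 eligible transcripts with a mean under 100 counts, 1.53% of the 2948 with 100 to 300 counts and 1.08% of the 1486 above that.

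On the log2 scale of edgeR's fit with TMM scaling, the median of the members was 0.68 (range 0.60 to 0.96), beside 0.08 for eligible transcripts and 0.01 for all 16657 transcripts tested. With library sizes alone as the scaling, the medians were 0.64 for the members and -0.04 for all transcripts. edgeR called 90 of the 100 members higher in SN oocytes at a Benjamini-Hochberg adjusted p under 0.05, where 5.41% of all tested and 10.3% of eligible transcripts were called higher. Of all calls, 901 were higher and 1344 lower in SN oocytes with TMM, and 583 higher and 1574 lower with library sizes alone, where 81 members were called. These calls rest on the contrast that chose the members and are not evidence for them.

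A high ratio of means did not imply that the stages were apart. In only 2 of the 100 members did every SN oocyte lie above every NSN oocyte, against 0.018% (3 of 16657) of all transcripts tested and 0.0304% of eligible ones, which the pair makes up. In 15 members at most 3 of 16 SN oocytes exceeded the highest NSN oocyte, in 32 between 4 and 7, in 35 between 8 and 11, and in 16 between 12 and 15. The members ranked 29 and 87 had no SN oocyte above the highest NSN oocyte, although their mean ratios were 1.62 and 1.497.

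TCONS_00018735, the member with the highest ratio, had 35.4 CPM in the lowest, 63.6 in the median and 90.6 in the highest NSN oocyte. In SN oocytes its lowest level was 57.6, its median 119.96 and its highest 195 CPM. The stages overlapped, with 3 of 16 SN oocytes below the highest NSN oocyte. Its means were 63.9 ± 17.99 CPM (SD, n = 9) and 121 ± 39.1 CPM (SD, n = 16), and the intermediate oocyte, at 67.0 CPM, lay where the stages overlapped.

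TCONS_00090890, at rank 12 by ratio and the member with the smallest p for stage among the others, was one of the pair without overlap. Its CPM was 74.5, 88.5 and 101 in the lowest, median and highest NSN oocyte, and 116, 146 and 183 in the lowest, median and highest SN oocyte. The means were 87.6 ± 9.09 CPM (SD, n = 9) and 149.7 ± 22.4 CPM (SD, n = 16). The intermediate oocyte had 112 CPM, in the gap between the stages. The other member without overlap, at rank 7, had a mean of 25.3 ± 5.58 CPM (SD, n = 9) in NSN oocytes and, in SN oocytes, of 44.6 ± 8.71 CPM (SD, n = 16).

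**Figure D1:**
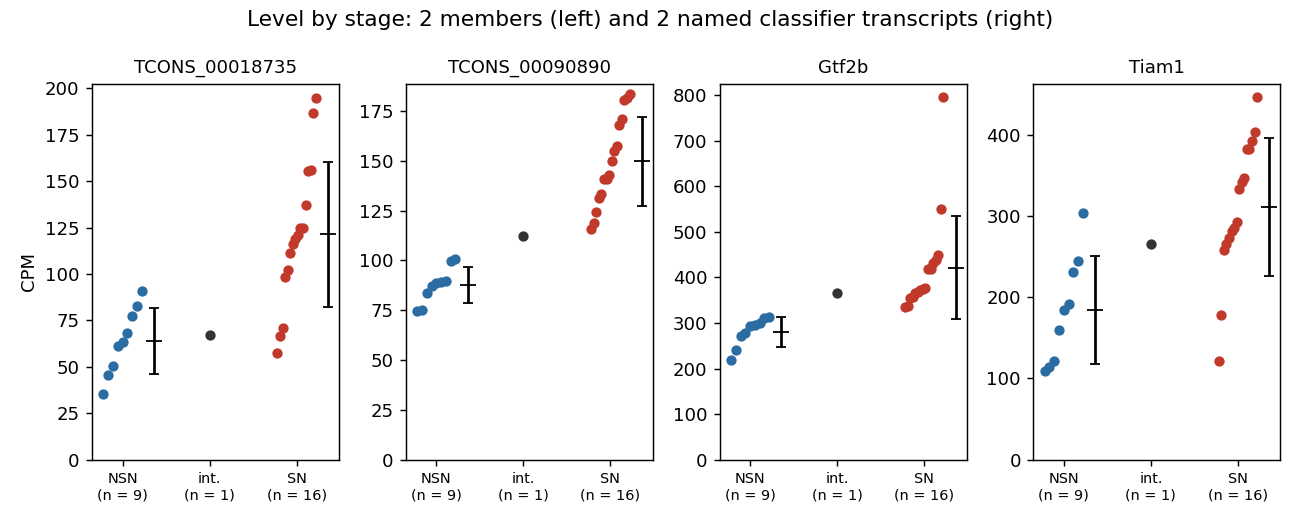
CPM of 2 members and of 2 named transcripts of the study's classifier in each NSN, intermediate and SN oocyte, with the mean and SD beside the points. TCONS_00090890 and Gtf2b separate the stages without overlap, whereas TCONS_00018735 and Tiam1 have SN oocytes within the NSN range.

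Summed over the 100 members, the level was 5997 ± 1698 CPM (SD, n = 9) in NSN oocytes and 9452 ± 1840 CPM (SD, n = 16) in SN oocytes. The lowest, median and highest NSN oocytes had 3836, 5936 and 8564 CPM, which is 0.384% to 0.856% of their counts. The corresponding SN values were 5313, 9864 and 11789 CPM, or 0.531% to 1.18% of counts. In 12 of 16 SN oocytes the sum exceeded every NSN oocyte, and the 4 others were C-13 (5313 CPM), D-28 (6753 CPM), C-9 (7465 CPM) and C-14 (7482 CPM). From the other side, the NSN oocytes D-11 (8564 CPM) and D-14 (8155 CPM) reached into the SN range, and 6 of 9 NSN oocytes exceeded C-13.

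The same oocytes stood out member by member. C-13 held 32 of 100 members above the NSN mean and D-28 held 59, whereas the other 14 SN oocytes held between 77 and 100. Among NSN oocytes this number ran from 7 in D-34 to 90 in D-11. Summed levels were thus graded within each stage, and the stages overlapped.

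**Figure D2:**
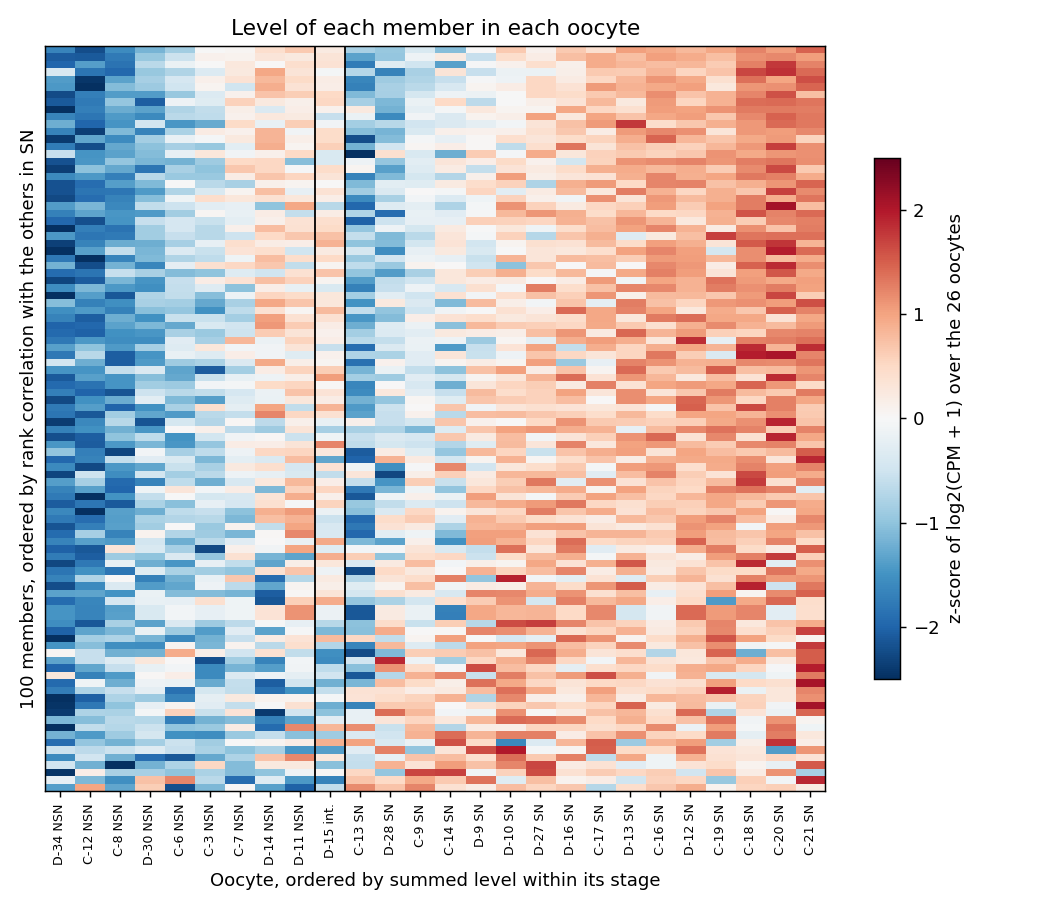
z-score of log2(CPM + 1) of the 100 members (rows) in the 26 oocytes (columns), with oocytes ordered by the summed level within NSN, intermediate and SN and members by how closely they follow the others among SN oocytes. Most rows change together from left to right within each stage, which is in part set by ordering oocytes on the sum of these rows. Most members in the SN oocyte C-13 are as low as in NSN oocytes.

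Members moved together among oocytes of the same stage. The rule used no correlations, but it drew on the CPM of these same oocytes, so the choice may have favoured transcripts that vary together. Its part in the correlations was not tested. The median Spearman correlation over the 4950 pairs of members was 0.41 within the 16 SN and 0.63 within the 9 NSN oocytes, whereas it was 0 in both stages over the pairs of eligible transcripts. Against the summed level of the other 99 members, the median correlation of a member was 0.73 in SN oocytes (range -0.42 to 0.94) and 0.83 in NSN oocytes (range -0.78 to 0.98). It was positive for 95 members in SN, for 92 in NSN and for 89 in both. Correlations of at least 0.5 were found for 67 members in SN oocytes, against 15% of the 6473 other eligible transcripts, and for 82 members in NSN oocytes, against 27% of the others. All these points share their library and its scaling, so the correlations are given as descriptions, with 9 and 16 points a transcript. The members at ranks 20 and 22 had the same CPM in most oocytes (147 in both in D-10), and those at ranks 48 and 54 had similar values. Member counts, sums and correlations may thus count some reads more than once, which was not tested.

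Among the 11 members that did not follow the rest in at least 1 stage was TCONS_00090890, with -0.55 in NSN and 0.11 in SN oocytes. Its NSN oocytes lay close together (74.5 to 101 CPM) while the summed level of the set differed between them from 3836 to 8564 CPM. TCONS_00018735 followed the set in NSN oocytes (0.85) and less closely in SN oocytes (0.36). Members with 300 or more counts followed the set most closely in both stages, with medians of 0.76 in SN and 0.93 in NSN, against 0.61 and 0.77 for those under 100 counts. Such members weigh more in the summed CPM, so this order may come in part from the measure, which was not tested.

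**Figure D3:**
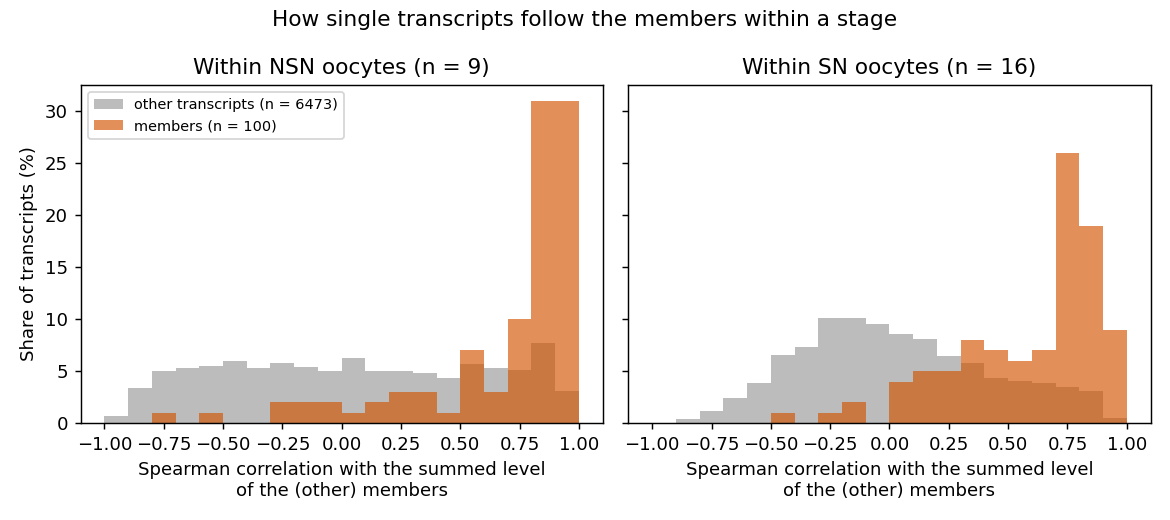
Distribution of the Spearman correlation of single transcripts with the summed level of the (other) members, within the 9 NSN oocytes (left) and the 16 SN oocytes (right), for members (orange) and the 6473 other eligible transcripts (grey). Members gather at the right, with medians of 0.83 and 0.73.

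Spread between oocytes was larger for members than for eligible transcripts in general. The median coefficient of variation of CPM was 36.9% within NSN and 26.5% within SN oocytes for members, and 20.7% and 21.2% for eligible transcripts. Single members ranged from 10.4% to 71.0% in NSN and from 14.1% to 58.9% in SN oocytes. The choice by extreme ratios of means and the lower counts of members (median 119 against 147) may both add to this spread. Their part was not tested.

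Library depth moved with the summed level. The 3 smallest libraries, of the SN oocytes C-19, C-20 and C-21 with 1358383 to 1382851 counts, had sums of 10895 to 11789 CPM. The 2 largest, of the SN oocytes C-13 and C-14 with 3576069 and 3647827 counts, had 5313 and 7482 CPM. D-12, with 3332029 counts and 10649 CPM, did not follow this order. Among SN oocytes the sum had a Pearson correlation of -0.55 and a Spearman correlation of -0.47 with log2 total counts (n = 16). Pearson's value was -0.28 without the 2 oocytes with the most extreme totals, so that value depended on these 2. Leaving them out also narrowed the range of totals. Among the 9 NSN oocytes Pearson's value was -0.48 and Spearman's -0.17. Without the 2 NSN oocytes with the most extreme totals, Pearson's value was -0.20 (n = 7). The part of depth in the differences between single oocytes was not tested.

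Single members were tested for a relation to log2 total counts within the 16 SN oocytes, a test added after the data were seen. The estimate was negative for 93 of 100 members and for 46.7% of eligible transcripts, with a median log2 change per doubling of the total of -0.30 for members and 0.02 for eligible transcripts. No transcript passed the adjusted threshold with edgeR's quasi-likelihood test or with DESeq2 (0% of 14836 called by edgeR, smallest adjusted p of a member 0.457). At an unadjusted p under 0.05 edgeR gave 25 of 100 members, against 11.6% of eligible transcripts.

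The levels were also read by depth, in oocytes that had all taken part in the choice, so a positive difference is largely fixed by it. The 6 SN oocytes with totals inside the NSN range had a summed level of 9543 ± 1271 CPM (SD, n = 6), and the median ratio of the members to NSN was 1.597. In that comparison 56 members were called higher by edgeR at an adjusted p under 0.05 (2.05% of all transcripts tested). With log2 total counts as a second term beside stage, 73 were called (3.78% of all tested). The 7 SN oocytes shallower than every NSN oocyte had a summed level of 10076 ± 1707 CPM (SD, n = 7) and a median ratio of 1.65. The 3 SN oocytes deeper than every NSN oocyte had 7815 ± 2684 CPM (SD, n = 3) and a median ratio of 1.30, with 97 members above 1, so the median ratio was lower in each deeper set.

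**Figure D4:**
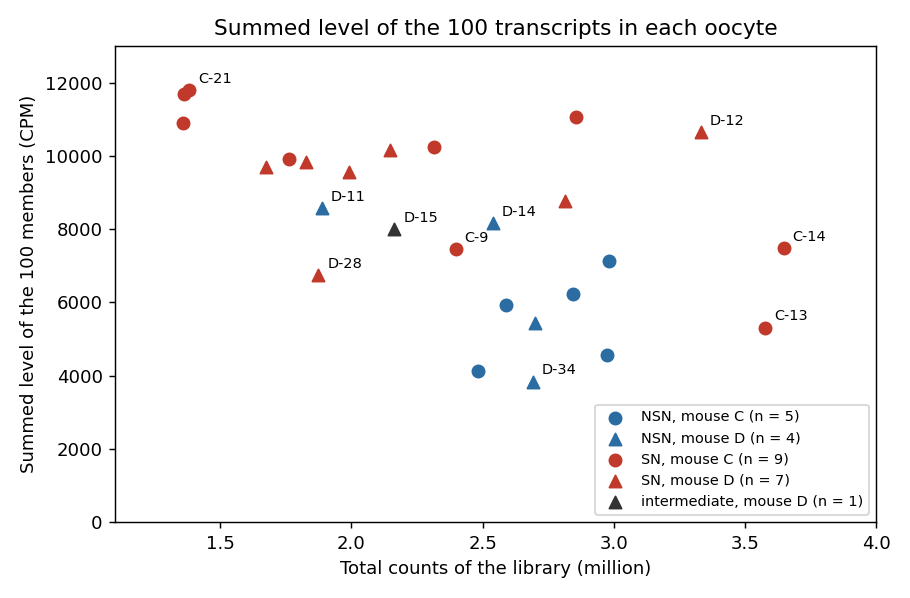
Summed level of the 100 members in CPM against the total counts of the library, for NSN (blue), SN (red) and the intermediate oocyte (black), with circles for mouse C and triangles for mouse D. SN oocytes reach 11789 CPM in the smallest libraries, while C-13, among the 2 largest, lies at 5313 CPM within the NSN range.

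The mice were compared next, since the rule had pooled them. Summed levels of NSN oocytes were 5596 ± 1227 CPM (SD, n = 5) in mouse C and 6499 ± 2252 CPM (SD, n = 4) in mouse D, and those of SN oocytes 9536 ± 2259 CPM (SD, n = 9) and 9345 ± 1279 CPM (SD, n = 7). With stage in the model, neither edgeR nor DESeq2 called a member for mouse at the adjusted threshold of 0.05. edgeR called 0.036% of all transcripts (0.018% higher and 0.018% lower in mouse D) and 0.0761% of eligible ones (0.0304% higher and 0.0456% lower). At an unadjusted p under 0.05, it gave 8 of 100 members and 15.6% of eligible transcripts. The median log2 difference of mouse D from mouse C was 0.02 over the members (range -0.51 to 0.54). For TCONS_00018735 it was 0.23 (SE 0.154, adjusted p = 0.633 from edgeR) and for TCONS_00090890 0.11 (SE 0.0873, adjusted p = 0.717 from edgeR).

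The ratio of SN to NSN was larger in mouse C for 77 of 100 members. In edgeR's fit the estimate was larger in mouse C for 75 of 100 members and for 56.3% of eligible transcripts. The rule pooled the mice, with more oocytes from mouse C, so it may have favoured transcripts with a larger ratio there. From mouse C alone the rule chose 60 of the members, and from mouse D alone 20. The part of the choice in this difference was not tested. The members' median CPM ratio was 1.72 in mouse C (range 1.23 to 2.21) and 1.43 in mouse D (range 0.920 to 2.16). The member at rank 86 was the only one below 1 in mouse D. The interaction of stage and mouse, which tests this difference for each transcript, passed the adjusted threshold for no member and no other transcript with edgeR or DESeq2 (0% of 16657), and 3 of 100 members had an unadjusted p under 0.05 with edgeR, against 6.86% of eligible and 5.98% of all transcripts tested. The smallest adjusted p of a member was 0.781 from edgeR.

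To obtain values that had not chosen the list, the rule was applied to 1 mouse and the resulting 100 transcripts were read in the other. The lists of transcripts left out were still the study's, drawn from both mice. Of the 100 transcripts chosen in mouse C, 60 were members, and their median ratio was 1.77 in mouse C and 1.27 in mouse D (range 0.775 to 2.13), where eligible transcripts had a median of 1.02. In mouse D, 93 of the 100 had a ratio above 1, as had 53.1% of eligible transcripts. Their summed level in single oocytes of mouse D overlapped between stages, with 3899 to 9460 CPM in NSN and 6247 to 10909 CPM in SN. These 100 transcripts were read in the same few oocytes and are not independent readings. edgeR called 6 of them higher in SN oocytes of mouse D at an adjusted p under 0.05 (0.932% of all transcripts tested in that mouse, 1.72% of eligible ones). Without the NSN oocyte D-34 this number was 3, and without D-11 it was 11. The calls over all transcripts moved too, from 157 of 16843 to 51 of 16483 without D-34.

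The reverse reading, from mouse D to mouse C, gave a lower median ratio and more calls, and the difference between the directions was not tested. Of the 100 chosen in mouse D, 20 were members and 5 had also been chosen in mouse C. Their median ratio fell from 1.67 in mouse D to 1.0997 in mouse C (range 0.714 to 1.80), close to the 1.02 of eligible transcripts, and 70 were above 1, against 55.5% of eligible ones. Summed over these 100, NSN oocytes of mouse C had 5308 to 9415 CPM and SN oocytes 6559 to 9363 CPM. edgeR called 10 of them higher in mouse C (1.52% of all tested, 3.04% of eligible transcripts). The number was 5 without the NSN oocyte C-6, and 6 without C-8 or without C-3. Over all transcripts, the 257 calls of 16878 became 632 of 16649 without the SN oocyte C-13 and 76 of 16549 without C-8.

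**Figure D5:**
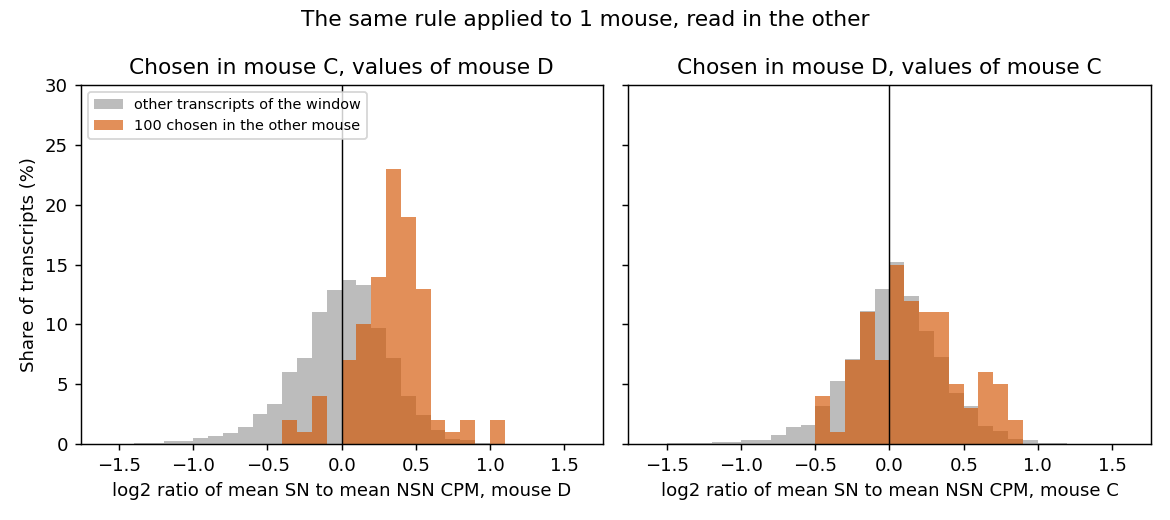
Distribution of the log2 ratio of mean SN to mean NSN CPM in mouse D for the 100 transcripts chosen in mouse C (left) and in mouse C for those chosen in mouse D (right), in orange, with the other transcripts in grey. The orange bars lie to the right of the grey ones in the left panel (93 of 100 above a ratio of 1), and overlap them largely in the right panel (70 of 100).

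The intermediate oocyte took no part in the choice. Its summed level was 8005 CPM, below the 2 highest NSN oocytes and above the 4 lowest SN oocytes. Its CPM lay between the NSN and SN means for 63 members, below the NSN mean for 16 and above the SN mean for 21. For 19 members it exceeded every NSN oocyte, and for 9 it was below every SN oocyte. The median of its ratio to the NSN mean was 1.33 and to the SN mean 0.859. With 1 such oocyte there is no test.

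Named transcripts with gains of the same size were among those that the rule leaves out. Of the study's classifier, 8 transcripts had a mean count in the window and a ratio at or above that of the last member, and no transcript with an Ensembl identifier did. As the classifier was chosen on these oocytes for a difference between the stages, their values too are given without a test of stage.

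Some of these genes act in transcription and chromatin. Gtf2b, which encodes the general initiation factor TFIIB, had 280.2 ± 32.1 CPM (SD, n = 9) before and 421 ± 114 CPM (SD, n = 16) after the change to SN. It was the third transcript without overlap, with 314 CPM in the highest NSN and 336 CPM in the lowest SN oocyte. Nipbl, the loader of cohesin on DNA, had 90.02 ± 23.6 CPM (SD, n = 9) and 133 ± 38.8 CPM (SD, n = 16), and 7 of 16 SN oocytes did not exceed the highest NSN oocyte. Phc2, a subunit of Polycomb repressive complex 1, had 116 ± 26.2 CPM (SD, n = 9) and 186 ± 36.7 CPM (SD, n = 16), with overlap in 5 SN oocytes.

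Tiam1, an exchange factor that activates the GTPase Rac, averaged 184 ± 66.3 CPM (SD, n = 9) over NSN oocytes and 311 ± 84.9 CPM (SD, n = 16) over SN oocytes. The values of Ibtk, named as an inhibitor of Bruton tyrosine kinase, were 143 ± 39.9 CPM (SD, n = 9) and 213 ± 52.4 CPM (SD, n = 16). Those of Wdtc1, a WD repeat protein gene, were 72.9 ± 30.9 CPM (SD, n = 9) and 120 ± 43.9 CPM (SD, n = 16). Ier5l, related to the immediate early response gene Ier5, had 17.7 ± 9.58 CPM (SD, n = 9) and 33.2 ± 14.7 CPM (SD, n = 16), and Fsd2 had 35.1 ± 8.77 CPM (SD, n = 9) and 55.2 ± 11.8 CPM (SD, n = 16). In each of these 5 genes the ranges of the stages overlapped, with 5 to 8 SN oocytes not above the highest NSN oocyte.

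Several of the named transcripts followed the member set within a stage. Spearman correlations with the summed level of the 100 members were 0.97 in NSN and 0.87 in SN oocytes for Tiam1, 0.88 and 0.94 for Wdtc1, and 0.97 and 0.78 for Ier5l. They were 0.65 and 0.59 for Gtf2b, and 0.78 and 0.20 for Nipbl. In the intermediate oocyte Gtf2b had 367 CPM and Ibtk 240 CPM, both above their NSN means, whereas Nipbl had 70.3 CPM and Fsd2 32.8 CPM, both below their NSN means. The value of Nipbl lay within the range of both stages.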

How the data were processed

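Single-oocyte RNA libraries were prepared with oligo-dT capture, template switching and Nextera XT. Per the study's methods and the submitters' processing notes, Trim Galore served for trimming, HISAT2 2.1.0 for alignment to GRCm38, and SeqMonk for quantification over a published transcriptome of mouse oocytes. The values the authors deposited are raw read counts, not normalized. Strand use in the counting is not given in the sources used here. A deposited table of the authors' DESeq2 comparison (means, log2 fold changes, p-values) was not used.

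Here CPM was computed on column totals to choose the members. Tests used edgeR 4.0.16 (TMM, quasi-likelihood, Benjamini-Hochberg adjustment over all transcripts tested, threshold 0.05) after a filter that asked for 3 counts or more in 9 oocytes (4 within mouse D, 5 within mouse C). DESeq2 1.42.0, R 4.3.3 and Python 3.11.15 were also used, and the scripts were tested on simulated data. Samples were grouped by stage and mouse from their labels. The members and lists were chosen with earlier results of these data known. The 2 members given by identifier are the one with the highest ratio and, of the others, the one with the smallest p for stage. Classifier transcripts and transcripts with an Ensembl identifier and a symbol were named when they met the same window and ratio.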

Additional observations from a re-analysis of the deposited data

Results flagged for a closer look

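Gtf2b, a classifier transcript with a gain of the same size as the members, had 796 CPM in the SN oocyte C-21, against 336 to 549 CPM in the other 8 SN oocytes of mouse C. The gap to the nearest oocyte was 0.536 of the range, above the limit of Dixon's test for 9 samples. It was the 1 flag among 55 groups of oocytes examined for the summed level, the 2 members given by identifier and the 8 named classifier transcripts, and chance flags about 1 in 20 groups. C-21 is among the 3 smallest libraries.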

How the results depend on the processing

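Which transcripts were chosen depended on the details of the rule. Of the 100 members, 53 were chosen again by a ratio of medians, 63 after downsampling all libraries to 1358383 counts, 60 from mouse C alone and 20 from mouse D alone. With 1 oocyte left out, 76 to 95 were chosen again. The number of members called higher in SN was 90 with mouse as a replicate block, 72 to 95 with 1 oocyte left out (lowest without the NSN oocyte D-34), and 56 with the 6 SN oocytes inside the NSN range of totals, a setting chosen after seeing the data that also has fewer oocytes. Transcripts chosen in mouse C and called in mouse D numbered 13 without a filter on low counts, and 3 to 11 with 1 oocyte left out, and those chosen in mouse D and called in mouse C 5 to 13 with 1 oocyte left out. Over all transcripts, calls higher in SN within mouse D numbered 157 with edgeR and 304 with DESeq2, those within mouse C 257 and 396, and calls between mice 6 and 151 (53 without a filter). With 1 oocyte left out, these edgeR calls ranged from 51 to 217 within mouse D, from 76 to 632 within mouse C and from 0 to 23 between mice, and the 901 calls higher in SN over both mice from 490 to 1031. The cause of these differences was not tested. Under the other alternatives the counts of members and of chosen transcripts stayed within 1.5 times those reported, and no member was called for mouse, for a stage effect that differed between mice or for library total under any of the alternatives run.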

Other observations

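Rows with other kinds of identifier also reached the range of the members. In the same window of counts, 7 transcripts whose identifiers begin with NOMERGE or CUFF had a ratio of mean SN to mean NSN CPM at or above that of the last member. The highest of them, at 2.18, exceeded every member, with a mean of 37.4 ± 29.1 CPM (SD, n = 9) over NSN oocytes and of 81.6 ± 45.1 CPM (SD, n = 16) over SN oocytes.

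Some transcripts outside the list followed it as well. Within SN oocytes 971 of the 6473 other eligible transcripts, and within NSN oocytes 1748, had a Spearman correlation of at least 0.5 with the summed level of the 100 members. Over all 6473 the median correlation was -0.02 in SN and 0.03 in NSN oocytes.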
